A study of Mus musculus with 6 samples.

Results

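Pax1, Pax9, Nkx3-2, Meox1, Meox2, Uncx and the noncoding gene AI646519 were followed in tissue from below and above the mouse aorta at embryonic day 11.5. The 6 protein-coding genes encode transcription factors of the somite, most of them known for work in the sclerotome, and AI646519 lies beside Pax1. They are 7 of 24015 genes with a symbol on the array, were picked by symbol with their ventral and dorsal levels already known, and all 7 were among the 12028 genes that passed a filter on dim probe sets. For that reason their ventral-to-dorsal differences are given here as a description with no p-value, and calls among them are counted only beside the share called of all genes. Ventral tissue lay directly beneath the dorsal aorta, and dorsal tissue filled the gap from the aortic roof up to the notochord. Both were cut by laser microdissection from unfixed, stained 20 µm cryosections of C57Bl/6 embryos, dorsal and ventral pieces coming from the same embryos, and no embryo was mutant or treated. Between 200 and 1000 pg of RNA per sample was amplified and hybridised to Affymetrix arrays, 3 ventral and 3 dorsal, numbered as biological replicates 1 to 3. The number of embryos behind an array is not stated, so the spread between arrays may hold technical as well as biological variation. The aorta at this stage is where the first hematopoietic stem cells form, and the comparison asks how the tissue on its ventral side differs from that on its dorsal side.

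The sclerotome is the ventromedial part of the somite, from which vertebrae, intervertebral discs and ribs form around the notochord. Sonic hedgehog from the notochord and floor plate induces the paired-box factors Pax1 and Pax9 there, and these in turn act upstream of the homeobox factor Nkx3-2 (Bapx1), which promotes cartilage formation. Uncx marks and maintains the posterior part of each sclerotome segment. Meox1 and Meox2 are homeobox factors active more widely in the somite, and Meox2 is also known from vascular smooth muscle.

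In ventral tissue 5 of the 7 genes lay lower than in dorsal tissue on every array, namely AI646519, Pax9, Pax1, Nkx3-2 and Uncx, with log2 fold changes (ventral minus dorsal) of −3.38 to −1.04. Meox1 and Meox2 did not share this pattern, with log2 fold changes of 0.05 and 0.86 and overlapping arrays. Groups that do not overlap, with ventral lower, made up 7.88% of all genes tested. None of the 7 had non-overlapping groups with ventral higher, a pattern of 7.5% of all genes. The same 5 genes were lower in ventral tissue in all 3 same-numbered pairs (16.9% of all genes) and had a log2 fold change of at most −1 (1.16% of all genes). In the fit over all genes 2 of the 7, Pax1 and AI646519, passed an adjusted p of 0.05, as did 0.515% of all genes in either direction and 0.208% with dorsal higher. Nothing is read from these shares, since the genes were chosen on this contrast. The median log2 fold change of the 7 was −1.80, and that of all genes tested was −0.01. The tissue was a mixture of cells, so fewer cells of a type and less RNA per cell cannot be told apart in any of these values.

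The sequences just upstream of the starts of Pax1 and AI646519 are shown because these genes lie head to head and shared the dorsal-high pattern, and those of Pax9 and Uncx because they are the other factors with motif matches among those higher in dorsal tissue. Each line gives the 250 bases before the RefSeq start on the gene's strand, 5′ to 3′, in build GRCm38.p6. Capitals mark matches, on either strand, to any of 7 motifs. These were the NKX core TAAGTG, the homeodomain core TAATTA, the SOX core ACAATG, the CCAAT box (its name is its letters), the TATA box TATAAA, the cAMP response element TGACGTCA and the GLI sequence GACCACCCA. No matches overlapped in the sequences shown.
Pax1: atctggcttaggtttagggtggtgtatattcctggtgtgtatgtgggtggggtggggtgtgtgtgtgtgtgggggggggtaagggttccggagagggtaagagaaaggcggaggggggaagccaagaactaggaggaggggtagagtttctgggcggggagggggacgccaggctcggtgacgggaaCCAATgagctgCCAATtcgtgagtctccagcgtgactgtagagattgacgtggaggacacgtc
AI646519: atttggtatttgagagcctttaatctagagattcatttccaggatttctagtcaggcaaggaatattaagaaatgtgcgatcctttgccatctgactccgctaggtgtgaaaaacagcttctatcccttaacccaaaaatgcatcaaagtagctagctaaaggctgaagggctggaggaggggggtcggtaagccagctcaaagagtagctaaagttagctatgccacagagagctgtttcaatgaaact
Pax9: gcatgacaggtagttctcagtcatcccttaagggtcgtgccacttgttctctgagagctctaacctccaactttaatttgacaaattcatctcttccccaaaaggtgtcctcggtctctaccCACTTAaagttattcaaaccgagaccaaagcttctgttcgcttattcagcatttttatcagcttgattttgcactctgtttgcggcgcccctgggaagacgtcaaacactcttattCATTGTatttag
Uncx: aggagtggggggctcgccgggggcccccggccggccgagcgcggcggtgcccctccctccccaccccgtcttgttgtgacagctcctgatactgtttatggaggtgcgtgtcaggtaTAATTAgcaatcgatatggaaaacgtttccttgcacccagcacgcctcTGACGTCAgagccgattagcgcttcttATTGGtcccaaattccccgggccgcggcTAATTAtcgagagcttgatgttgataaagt
The Pax1 stretch is chr2:147364744-147364993 on the plus strand, and the AI646519 stretch is chr2:147362794-147363043 on the minus strand. The Pax9 stretch is chr12:56695221-56695470 and the Uncx stretch chr5:139543648-139543897, both on the plus strand. The RefSeq spans of Pax1 and Pax9 begin earlier, at 147361930 and 56691693, so these 2 stretches lie inside the gene spans, before an internal start. The Uncx span begins at 139543865, so the last bases of its stretch lie inside that span.

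Promoters of 6 of the 7 genes were in the RefSeq table, Meox1 not among them. The Pax1 stretch held CCAAT from positions −63 and −52 (counted back from the base before the start), an element found in 33.8% of all 32851 promoter stretches of that length. The AI646519 stretch held none of the 7 motifs. TAATTA occurred in 4.84% of all stretches and, among these genes, only in Uncx, where it stood from positions −133 and −30. Uncx also held TGACGTCA (1.55% of all) and CCAAT on the opposite strand. Pax9 held TAAGTG (7.92% of all) and ACAATG (10.7% of all), both on the opposite strand. TATAAA (12.4% of all) was present, among the 6, only in Meox2, and there on the opposite strand. The GLI sequence occurred in 0.225% of all stretches and in none of these 6. A match describes letters in a window and is not a binding site.

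Pax1 is the paired-box factor mutated in the undulated mouse mutants, which have malformed vertebrae. Its levels were 4.47, 4.90 and 4.21 on ventral arrays 1, 2 and 3, against 7.57, 6.94 and 6.88 on dorsal arrays 1, 2 and 3 (log2 units, as all levels below). All 3 ventral arrays lay below all 3 dorsal ones, and the 2 groups were 1.99 apart at their closest. The means were 4.53 ± 0.35 in ventral and 7.13 ± 0.38 in dorsal tissue (SD, n = 3 each), a log2 fold change of −2.60 ± 0.24 (SE), or 6.08-fold lower in ventral tissue. On the ventral side only 1 of 3 arrays reached the level of the brightness filter (4.52, the median of all probe sets). Fold values against levels so close to the middle of all probe sets are those of the deposited values and are no exact ratio of transcript.

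AI646519 is a long noncoding RNA gene that RefSeq also lists as Aspax1 and Peat. It read 4.92, 4.83 and 4.59 on the ventral arrays, against 8.52, 8.33 and 7.62 on the dorsal arrays. This was the greatest ventral deficit of the 7 genes, with a mean of 4.78 ± 0.17 in ventral and 8.15 ± 0.47 in dorsal tissue (SD, n = 3 each). The log2 fold change was −3.38 ± 0.19, or 10.4-fold lower in ventral tissue, which like the fold of Pax1 is set against ventral levels near the filter, and 2 genes of 12028 lay further toward the dorsal side. Same-numbered arrays differed by −3.60, −3.50 and −3.03, so the 3 pairs were alike for this gene.

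The Pax1 and AI646519 genes overlap in the RefSeq annotation on chromosome 2. AI646519 spans 147361541 to 147362793 on the minus strand, and the Pax1 span runs from 147361930 to 147375049, so that 864 bases are shared. The Pax1 start in the promoter table, at 147364994 on the plus strand, lies 2201 bases from the AI646519 start, the 2 genes running away from each other. Where the probes of each gene lie, and whether any fall in the shared stretch, is not given in the sources used here, so a part of the signal common to both cannot be told apart.

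Pax9 is the close relative of Pax1 that acts alongside it in the vertebral column. Its levels were 4.57, 4.19 and 5.52 on the ventral arrays, against 7.89, 7.96 and 6.49 on the dorsal arrays. The groups did not overlap, yet the replicate 3 arrays stood nearest to each other, with the highest ventral and the lowest dorsal value. The pairs differed by −3.33, −3.78 and −0.97, and the log2 fold change was −2.69 ± 0.51 (6.45-fold lower in ventral tissue). The SE of Pax9 was more than that of Pax1 although the size was similar. Without replicate 3 the log2 fold change of Pax9 was −3.55, and without replicate 2 it was −2.15.

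Nkx3-2 read 5.67, 4.84 and 4.92 on the ventral arrays, against 6.51, 7.98 and 6.35 on the dorsal arrays. Dorsal 2 stood well above the other dorsal arrays, and ventral 1 was the highest of its tissue. Its mean was 5.15 ± 0.46 in ventral and 6.95 ± 0.90 in dorsal tissue (SD, n = 3 each), a log2 fold change of −1.80 ± 0.42 or 3.49-fold lower in ventral tissue. Without replicate 2 the log2 fold change was −1.14, and without replicate 1 it was −2.29, with the same sign in all 16 alternative fits.

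Uncx had the smallest deficit of the 5 genes lower in ventral tissue. It read 4.42, 4.72 and 4.70 on the ventral arrays, against 5.59, 5.35 and 6.02 on the dorsal arrays. The groups did not overlap, with 0.63 between them. The log2 fold change was −1.04 ± 0.20 (2.05-fold lower in ventral tissue) and ran from −1.24 to −0.85 over the 16 alternatives. In size it was the 132nd lowest of 12028 genes, whereas Nkx3-2 was the 31st, Pax1 the 9th and Pax9 the 8th.

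Meox1 read 6.97, 6.21 and 7.44 on the ventral arrays, against 6.27, 8.07 and 6.15 on the dorsal arrays. Dorsal 2 held the highest value of all 6 and the other 2 dorsal arrays were among the 3 lowest, so that the tissues overlapped. The pairs differed by 0.71, −1.86 and 1.29, and the log2 fold change was 0.05 ± 0.57. Its sign turned in 7 of the 16 alternative fits, with −0.58 without replicate 3 and 1.00 without replicate 2. These arrays therefore give no direction for Meox1, and the SE leaves room for a difference either way.

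Meox2 read 8.07, 4.96 and 4.50 on the ventral arrays, against 5.94, 4.93 and 4.08 on the dorsal arrays. Ventral 1 stood far above every other array, and dorsal 1, of the same replicate number, was the next highest. The ventral mean of 5.84 ± 1.94 (SD, n = 3) rests on that array, against a dorsal mean of 4.98 ± 0.93 (SD, n = 3). The pairs differed by 2.13, 0.03 and 0.42, and the log2 fold change of 0.86 ± 0.40 became 0.22 without replicate 1. Without ventral 1 alone, and with no pairing, it was −0.26. The SE without the pairing was 0.90.

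The plot of levels by array shows the 5 separated genes beside the 2 overlapping ones, and the plot of log2 fold changes shows how far each depends on 1 pair of arrays. The histogram sets the same 7 values among all genes tested.

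**Figure D1:**
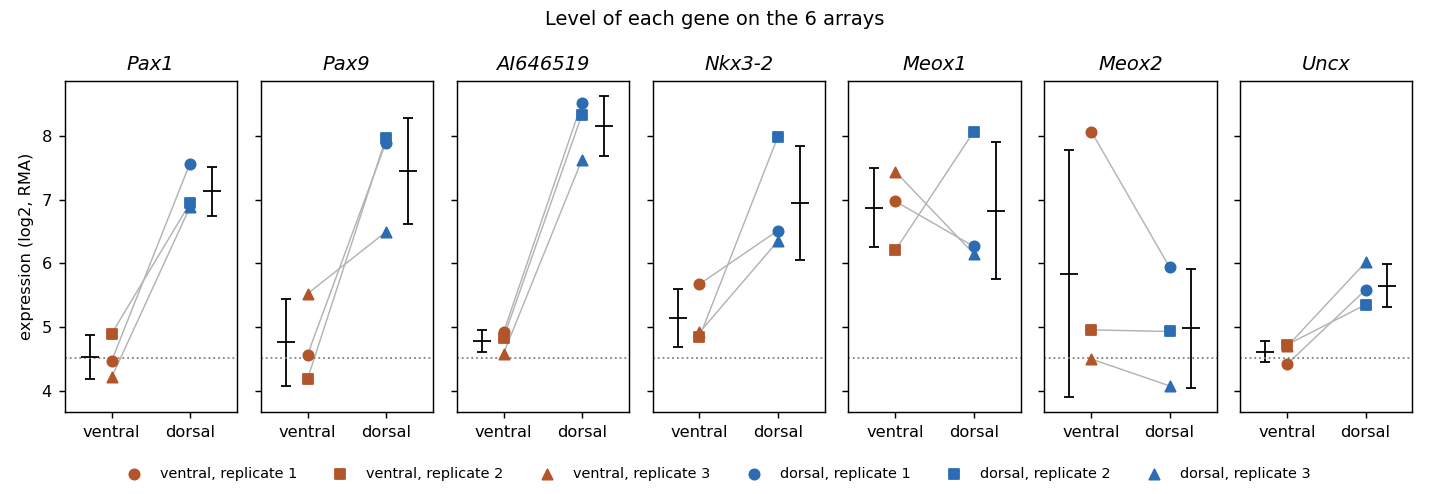
Expression level (log2, RMA) of the 7 genes on each array, ventral arrays on the left and dorsal arrays on the right of each panel. Symbols give the replicate number, grey lines join the same number, bars beside the points are mean ± SD over 3 arrays, and the dotted line is the filter level of 4.52; in 5 panels every ventral array lies below every dorsal array, and for Meox2 ventral 1 stands apart at 8.07.

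**Figure D2:**
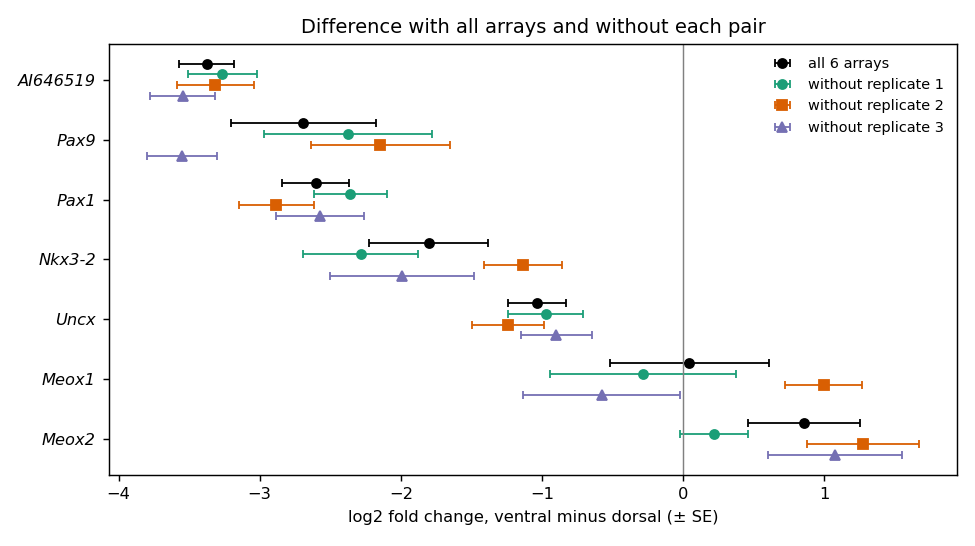
Log2 fold change (ventral minus dorsal, ± SE of the limma fit) of each gene with all 6 arrays and without each same-numbered pair. AI646519, Pax1 and Uncx moved little, Pax9 ran from −3.55 to −2.15 and Meox1 changed sign.

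**Figure D3:**
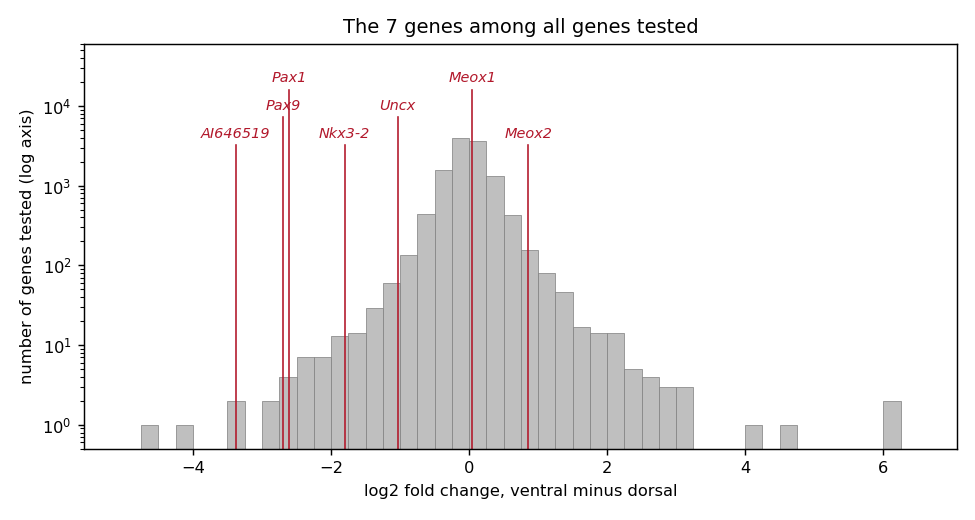
Number of tested genes (log axis) by log2 fold change, ventral minus dorsal, over 12028 genes, with red lines at the 7 genes. AI646519, Pax9 and Pax1 lie in the sparse dorsal tail, Meox1 at the centre and Meox2 at 0.86.

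The map of levels by array shows that arrays of one tissue were not alike, and markers of other cells moved with some of these values. On dorsal 3, 31 tested genes lay at least 2 log2 units above both other dorsal arrays, against 3 on dorsal 1 and 5 on dorsal 2. Ventral 3, the array with the highest ventral Pax9, had 25 genes that far above both other ventral arrays, ventral 1 had 17 and ventral 2 had 5, and ventral 1 had 17 that far below. Fabp7, a fatty acid binding protein of neural progenitors and glia, read 6.41, 8.13 and 10.75 on dorsal arrays 1, 2 and 3. Factors used in the neural tube and other tissues were also highest there, though dim on average and not tested. Emx2 read 5.01, 3.66 and 7.98 on the dorsal arrays, the zinc-finger factor Zic1 read 3.94, 3.85 and 6.61, and Pax6 read 3.51, 3.61 and 5.87. In the list of neural crest and glia genes, the mean level relative to the 6-array mean was −0.44 to −0.18 on ventral and −0.20 to 0.87 on dorsal arrays, highest on dorsal 3. Of its 5 tested genes 4 were negative and 1 positive (median −0.31), none passed, and Sox10, a defining factor of neural crest, lay below the filter. Only Fabp7 of the tested genes had its highest dorsal level on dorsal 3. Erbb3, Ednrb and Foxd3 were highest on dorsal 2 and Tfap2b on dorsal 1. Sox10 read 4.84, 5.02 and 4.05 on the dorsal arrays. The mean level of the tested neuronal genes was −0.08, 0.14 and −0.09 on the dorsal arrays. That mean joins unlike genes, since Tubb3, Elavl3, Stmn2 and Dcx were highest among dorsal arrays on dorsal 3. Nefl, Nefm and Isl1 were lowest there. Pax9 and Nkx3-2 were lowest among dorsal arrays on dorsal 3, and so were Pax1 and AI646519, while Uncx was highest there. Their part in these values was not tested. Without replicate 3, AI646519, Pax1, Nkx3-2 and Uncx had log2 fold changes of −3.55, −2.57, −1.99 and −0.90.

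Ventral 1, the array with high Meox2, also had the most signal of smooth muscle. Acta2, Tagln, Cnn1 and Myh11, which encode contractile proteins, were highest there of all 6 arrays. In the same list Pdgfrb was also highest there, whereas Rgs5 and Des were highest on ventral 2 and Cspg4 on dorsal 2. Cnn1 (calponin) read 9.82, 7.91 and 6.83 on ventral arrays 1, 2 and 3, against 5.36, 6.15 and 4.68 on the dorsal arrays. Myh11, the smooth muscle myosin heavy chain, read 6.84, 5.06 and 4.38 on the ventral arrays, against 4.46, 4.76 and 4.79 on the dorsal arrays. The mean level of the 8 smooth muscle and pericyte genes was 1.33, 0.61 and −0.11 on the ventral arrays, against −0.62, −0.16 and −1.04 on the dorsal arrays. Dorsal 1, the next highest for Meox2, was not raised in this list. Their part in the Meox2 value was not tested. Dorsal 2, highest of all 6 arrays for Meox1 and Nkx3-2, also had the highest dorsal mean level of 8 endothelial genes. Of the 8, Cldn5 was instead highest among dorsal arrays on dorsal 3. The mean was 0.04, 0.34 and 0.49 on the ventral arrays, against −0.61, 0.16 and −0.42 on the dorsal arrays. Nkx3-2 was low on ventral 2 and 3, where that mean was highest, and the part of these genes was not tested.

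**Figure D4:**
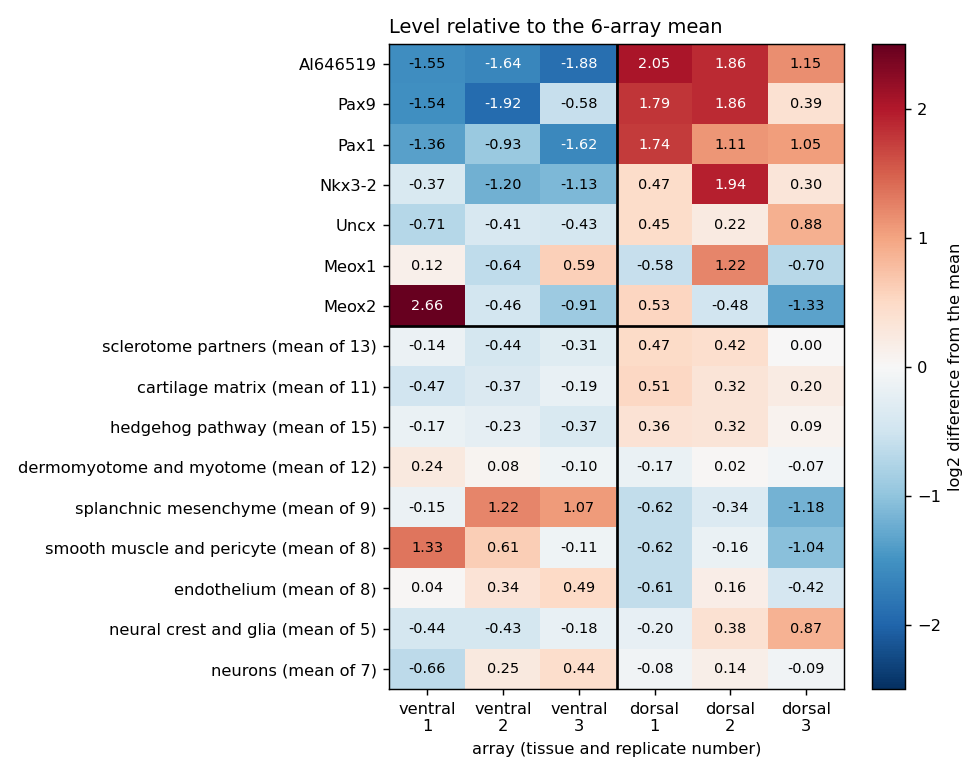
Level on each array relative to the mean of the 6 arrays (log2; red above, blue below), for the 7 genes in the upper block and for the mean of each gene list in the lower block. The first 5 genes are blue on all ventral and red on all dorsal arrays, whereas Meox2 and the smooth muscle list peak on ventral 1 (2.66 and 1.33).

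Genes that neighbour the 7 on their chromosomes were examined, taking for each the 4 nearest on either side that the array names. There were 48 such neighbours besides the 7 genes themselves, 18 of them bright enough to be tested, and none passed the all-gene threshold in limma. The median log2 fold change of the 18 was −0.06. Around Pax1 and AI646519, the neural factor gene Nkx2-2 differed by −0.11, its antisense partner Nkx2-2os by −0.20 and the endoderm and floor plate factor Foxa2 by −0.00484, all 3 lying below the filter. The next tested genes on the 2 sides were 6430503K07Rik (−0.05 ± 0.23, adjusted p = 0.971 in limma) and Sstr4, a somatostatin receptor (0.56 ± 0.18, adjusted p = 0.333). The strong dorsal signal in this stretch of chromosome 2 was measured at Pax1 and AI646519, and the other named genes nearest to them differed by −0.20 to 0.56.

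Beside Pax9 the picture differed on the 2 sides. On the side of lower coordinates, the homeobox genes Nkx2-9 and Nkx2-1 differed by −0.18 and −0.04, both below the filter. On the other side, Slc25a21, which encodes a mitochondrial carrier and shares 191 bases with the Pax9 span, read 2.83, 2.88 and 2.65 on the ventral arrays, against 4.03, 3.52 and 3.998 on the dorsal arrays. The groups did not overlap, but all 6 values lay below the filter and the gene was not tested in the main fit. Mipol1, further along, read 4.73, 5.75 and 5.41 on the ventral arrays, against 6.10, 6.31 and 6.10 on the dorsal arrays. The log2 fold change of Mipol1 was −0.87 ± 0.22 and did not pass (adjusted p = 0.210 in limma). Next to Nkx3-2, Rab28, a small GTPase gene, also had lower ventral values (−1.01 ± 0.33, adjusted p = 0.333), while Bod1l on its other side differed by −0.13. The nearest named gene to Uncx, the noncoding 4930500L23Rik at 2526 bases, differed by −0.45 with non-overlapping groups, its mean lying below the filter. Around Meox1 and Meox2 the immediate neighbours Etv4, 4930417O22Rik, Mir5099 and Agmo differed by 0.19, 0.05, −0.03 and 0.13.

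**Figure D5:**
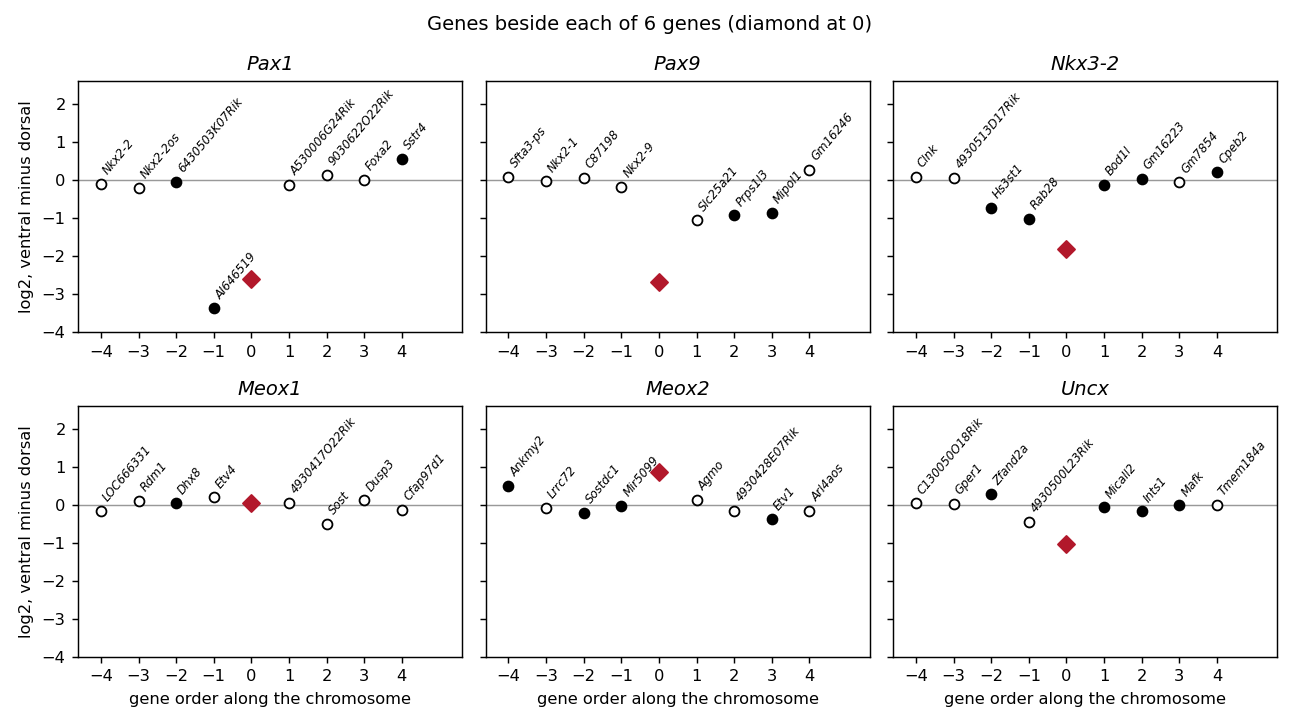
Difference in level (log2, ventral minus dorsal) of the 4 nearest named genes on either side of 6 genes, by gene order, with filled circles for genes tested, open circles for those below the brightness filter and the red diamond for the central gene. At Pax1 only AI646519 shares its position far below 0, while at Pax9 the first 3 genes on one side lie near −1.

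By likeness of pattern, the 3 tested genes with the highest Pearson correlation over the 6 arrays were named for each gene, out of 3100 tested genes with a range of at least 1 log2 unit. Each correlation is a description over arrays that fall into 2 tissues and share their amplification and normalization, so a large tissue gap alone gives a high value. For Pax1 these were Chad (0.994), AI646519 (0.985) and Clec3a (0.979), and for AI646519 they were Clec3a (0.993), Vps33a (0.990) and Chad (0.988). Chad encodes chondroadherin of cartilage matrix and Clec3a a cartilage lectin. For Pax9 they were Mbnl3, Mgst3 and Chst11 (0.991, 0.991 and 0.988), of which Chst11 encodes a chondroitin sulfotransferase. For Nkx3-2 they were Ptx3, Gm1976 and Kctd1 (0.989, 0.969 and 0.966), and for Uncx Pola2, Mis12 and Sorbs2 (0.989, 0.985 and 0.981). Meox1 was followed most closely by Islr, Atxn7l2 and Gm15952 (0.954, 0.947 and 0.919), and Meox2 by Gm16982, Eral1 and Shkbp1 (0.988, 0.983 and 0.981). Pax1 and Pax9 did not appear in each other's list.

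Among sclerotome partners of the 7 genes, 13 were tested, 11 lay on the negative and 2 on the positive side with a median log2 fold change of −0.44, and 1 passed over all genes, Ebf3, a factor of the early B-cell factor family. Of all genes tested 0.515% passed, 0.208% with dorsal higher. Nothing is read from the counts called in this list and those below, since all were chosen with earlier results of these data known. Ebf3 read 5.56, 4.88 and 4.73 on the ventral arrays, against 6.94, 6.83 and 6.88 on the dorsal arrays (log2 fold change −1.83 ± 0.21, limma adjusted p = 0.0305). It did not pass without replicate 2 (0.0557), replicate 3 (0.0761) or the brightness filter (0.106), nor, without the pairing, in 5 of 6 fits that left out a single array (all but ventral 1), and over all alternatives its adjusted p ran from 0.00556 to 0.118. Its relatives Ebf1 (−1.19 ± 0.18, adjusted p = 0.0677) and Ebf2 (−1.19 ± 0.32, 0.249) had values on the same side, as did the chondrogenic factors Sox6 (−1.23 ± 0.25, 0.134) and Sox9 (−0.89 ± 0.21, 0.185). Twist1 and Foxc2, active across somitic mesenchyme, were at −0.08 and 0.22.

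Cartilage matrix genes lie downstream in the programme that these factors start. Of 11 tested, 3 passed, all lower in ventral tissue, against 0.208% of all genes. In the same list 5 others had negative and 3 positive values, and the median was −0.28. Chad read 3.60, 3.94 and 3.70 on the ventral arrays, against 6.34, 5.95 and 5.92 on the dorsal arrays, a log2 fold change of −2.32 ± 0.21 (limma adjusted p = 0.0183). Clec3a had −2.09 ± 0.21 (0.0258), and Col2a1, the main cartilage collagen, −1.75 ± 0.19 (0.0258). All ventral values of Chad and Clec3a lay below the filter level of 4.52, so their log2 fold changes are set against a level where transcript may not be measured. Both passed the filter only through their dorsal arrays, so no weight is put on their calls. Chad did not pass without the brightness filter (0.0647; 0.00434 to 0.0647 over its alternatives). Clec3a did not pass without the filter (0.0816) or, with no pairing, without ventral 2, ventral 3, dorsal 1 or dorsal 2 (up to 0.107; lowest over all alternatives 0.0123). Col2a1 did not pass without the filter (0.0816), without replicate 1 (0.0513) or replicate 2 (0.0557), or, with no pairing, without ventral 2 (0.0577) or dorsal 1 (0.0519), and its lowest was 0.00684. Acan and Matn1, markers of later cartilage, were dim on average and not tested. Acan, the aggrecan gene, read 3.56, 3.54 and 3.43 on the ventral arrays, against 5.26, 5.27 and 4.06 on the dorsal arrays. The Acan groups did not overlap, with dorsal higher, whereas Matn1 lay between 2.89 and 3.17 on all 6 arrays.

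The hedgehog pathway, which induces Pax1, had 15 tested genes, 9 negative and 6 positive, with a median of −0.23 and 1 gene past the threshold. That gene was the forkhead factor Foxf2 (−2.71 ± 0.25, limma adjusted p = 0.0183), which failed without the pairing (0.0742), without the filter (0.0753) and, with no pairing, without any single array except dorsal 3 (up to 0.263; lowest 0.0110). It read 3.82, 4.25 and 3.29 on the ventral arrays, all below the filter level, against 6.76, 7.37 and 5.37 on the dorsal arrays. Foxf2 thus passed the filter only through its dorsal arrays, and the limits given for Chad hold for its size and its call. Ptch1, the receptor and a transcriptional target of the pathway, read 7.89, 6.91 and 6.92 on the ventral arrays, against 9.28, 9.17 and 8.18 on the dorsal arrays (−1.63 ± 0.24, adjusted p = 0.0638, and 0.0288 with an eBayes trend). The target Gli1 had −1.20 ± 0.22 (0.106), and the ligand Shh −0.36 ± 0.25 (0.686) at levels of 4.18 to 5.18 around the filter. Ptch1, Gli1, Foxf2, Shh, Sufu, Foxf1 and Foxl1 were each lowest among dorsal arrays on dorsal 3, as Pax1 and Pax9 were. In the same list Gli3, Boc, Cdon, Gas1, Smo and Ihh were each highest of the dorsal arrays there. The mean level of the 15 tested genes, relative to the 6-array mean, was −0.17, −0.23 and −0.37 on the ventral arrays. On the dorsal arrays that mean was 0.36, 0.32 and 0.09, lowest on dorsal 3. The part of these genes in the Pax1 and Pax9 values was not tested.

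None of the remaining somite lists had a gene past the threshold with all arrays and the settings used throughout. Of 12 tested dermomyotome and myotome genes, 8 were negative and 4 positive with a median of −0.02, and the largest value was that of Des (1.12 ± 0.18, limma adjusted p = 0.0721). Des is also in the smooth muscle and pericyte list. Pax3, the dermomyotome factor and the only other Pax gene bright enough to test, had −0.01 ± 0.25 (0.993). Tcf15, a factor of the epithelial somite, had −0.13 ± 0.31 (0.937). In the tendon list of 5 tested genes, 4 were positive, led by the matrix protein gene Tnc (2.43 ± 0.40, 0.0824), while the tendon progenitor factor Scx had 0.22 ± 0.19 (0.772). Tnc passed with an eBayes trend (0.0476), without replicate 1 (0.00578) and, with no pairing, without ventral 1 (0.00297). Of 8 tested segmentation genes, 4 were positive and 4 negative (median −0.01), and Tbx18, which marks the anterior part of each sclerotome segment, opposite to Uncx, had −0.43 ± 0.19 (0.497). In the notochord list 5 of 7 tested genes were positive (median 0.40), with Cav1 at 1.46 ± 0.34 (0.179) and overlapping arrays. The 1 gene of that list without overlap was Foxa1, which read 4.78, 4.79 and 4.27 on the ventral arrays, against 5.23, 5.16 and 5.52 on the dorsal arrays (−0.69 ± 0.23, 0.348). The notochord factors Noto and Foxa2 were below the filter. Of 3 tested Nkx genes other than Nkx3-2, the values ran from −0.12 for Nkx6-2 to 0.21 for Nkx2-5 (median 0.02).

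On the ventral side the tissue carried markers of splanchnic mesenchyme, of which 8 of 9 tested had positive values and 3 passed, Tcf21 (4.70 ± 0.29, limma adjusted p = 0.00347), Gata6 (3.19 ± 0.19, 0.00336) and Hlx (2.00 ± 0.19, 0.0183). Foxf1 was the exception, at −1.71 ± 0.72. The median of that list was 1.501. Tcf21 read 3.255, 5.156 and 3.449 on the dorsal arrays, and its dorsal mean of 3.953 lay below the filter level. Tcf21 thus passed the filter only through its ventral arrays, and the limits given for Chad hold for its size and its call. With ventral higher, 0.308% of all genes passed, and nothing is read from the count of 3, the list being chosen with earlier results known. With no pairing, each of the 3 calls was lost without ventral 2, ventral 3 or dorsal 1, and further without dorsal 2 for Gata6 and dorsal 3 for Tcf21, with adjusted p of at most 0.117, and Hlx also failed without the filter (0.0647). All 8 smooth muscle and pericyte genes were positive (median 0.94) and Rgs5 passed (2.18 ± 0.24, 0.0258), though not without the pairing (0.0732), the filter (0.106) or replicate 3 (0.0675), nor in any fit without the pairing that left out a single array (0.0913 to 0.195). Endothelial (8 tested, median 0.57) and macrophage genes (8 tested, 0.37) were all positive, erythroid genes (6 tested, −0.54) all negative, and none of these passed. Neuronal genes were mixed (7 tested, 3 positive, 4 negative, median −0.11), from Stmn2 at −1.30 ± 0.33 to the motor neuron factor Isl1 at 1.501 ± 0.64, and none passed. Isl1 was also counted among the splanchnic genes above. In the mesonephros list 2 genes were tested, Wt1 (1.29 ± 0.20, adjusted p = 0.0715) and Gata3 (0.16 ± 0.26), while the defining factors Pax2, Pax8 and Lhx1 lay below the filter.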

How the data were processed

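Total RNA of 3 ventral and 3 dorsal aortic tissue samples was profiled on Affymetrix arrays. The deposited values are log2 levels, 1 per gene and array, made with Affymetrix Expression Console and RMA per the submitters' processing notes. RMA corrects background, quantile-normalizes arrays and summarises probes. Not given in the sources used here are versions and probe grouping. Amplification of picogram RNA can distort ratios of weak to strong transcripts. Array medians were 4.49 to 4.55, correlations between arrays 0.956 to 0.976, and no counts exist from which depth could be given. Precision is limited by there being 3 arrays a tissue.

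Of 24973 probe sets, 24015 had 1 symbol in the platform table, 0 several and 958 none here. Ventral minus dorsal was fitted with limma 3.58.1 in R 4.3.3 (functions lmFit and eBayes), with the replicate number as a block, on the 12028 named genes whose mean reached 4.52, with Benjamini-Hochberg adjustment and a threshold of 0.05 (two-sided, 6.41 degrees of freedom). The script was tested on simulated data. The labels take both tissues from the same embryos, but do not say that a replicate number marks an embryo, so the block rests on a reading of the labels. As a check of the pairing, each array's deviation from its tissue mean was correlated with that of its same-numbered partner, giving 0.0992, 0.0763 and 0.226 for same numbers, against −0.153 to 0.0805 for different numbers, so the data give the pairing only weak backing.

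The 7 genes and all lists were chosen with earlier results of these data known. Named genes were the 7, the 3 most like each, called genes of the lists and those with the largest changes, the neighbours and marker extremes. Twist1, Foxc2, Shh, Tcf15, Scx, Tbx18, Acan, Matn1, Emx2, Zic1, Pax6 and Myh11 were added after their values were seen. Gene spans, order and upstream sequences come from RefSeq tables of GRCm38.p6. Alternatives were the fit without the block, other filters, median shift, cyclic loess, an eBayes trend, array weights and left-out arrays.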

Additional observations from a re-analysis of the deposited data

How the results depend on the processing

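The log2 fold changes of AI646519, Pax1, Pax9, Nkx3-2 and Uncx kept their sign in all 16 alternatives, Meox1 turned in 7 and Meox2 in 1. Of the 7 genes, Pax9 alone moved by more than the larger SD between replicates, and in 1 alternative (−3.55 without replicate 3). Without the filter 1 of the 7 genes (AI646519) was called in place of 2, and 10 genes in all in place of 62. With an eBayes trend 94 genes were called. Leaving out each same-numbered pair gave 48 to 75 calls, and 2 to 3 among the 7 genes, Pax9 being added without replicate 3 and, with no block, without dorsal 3. Leaving out 1 array with no block gave 12 (without dorsal 1) to 104 (without ventral 1), against 59 with all arrays and no replicate block, where the same 2 of the 7 were called. The count fell to 13 without ventral 2, 18 without ventral 3, 23 without dorsal 2 and 40 without dorsal 3. In those single-array fits 1 tissue kept 2 arrays. Pairing changed no call of the 7 genes, but those of Foxf2 and Rgs5 were lost without it. Gata4 (0.0177) and Cnn1 (0.029) passed without replicate 1, Cnn1 also without replicate 2 (0.0383), and Gata4, with no block, without ventral 1 (0.00315). Levels near the filter, as for Pax1, Pax9, AI646519 and Uncx in ventral tissue, limit what their folds can show.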
